A study of Homo sapiens with 24 samples.

Results

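Mitochondrial ribosomal protein genes are the nuclear genes that encode the proteins of the mitochondrial ribosome. They were taken as every protein-coding gene of the count table whose GENCODE release 29 symbol begins with MRPL or MRPS followed by a number. The rule found 78 genes of 58381 gene IDs in the table, 49 with an MRPL (large subunit) symbol and 29 with an MRPS (small subunit) symbol. It used symbols only and no measured value. All 78 passed the filter on low counts, so every gene of the set was among the 20820 genes tested.

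The mitochondrial ribosome makes the few respiratory chain proteins that mitochondrial DNA encodes. Its ribosomal RNAs are transcribed inside the organelle from mitochondrial DNA, whereas its proteins are encoded in the nucleus, made in the cytosol and imported. Some of these proteins have bacterial relatives and sit at the decoding site, the peptidyl transferase centre or the factor-binding stalk, and others are found only in mitochondria. The symbol does not always give the subunit: the proteins of MRPS30 and MRPS18A lie in the large subunit in structures of the human particle, and that of MRPS36 is a part of the oxoglutarate dehydrogenase complex.

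RNA came from the bladder cancer lines T24, 5637, TCC-SUP and also CLS-439, 4 in all, after mitomycin C (MMC), a drug that crosslinks DNA, or with no drug. Treated cells had MMC at 75 µM for 1 h, and their RNA was extracted 15 h later. The treatment tag of the labels reads MCC, while the protocol and the design text name only the drug MMC. Each of the 8 groups had 3 libraries, numbered 1, 3 and 4 and described as biological replicates, for 24 poly(A) libraries in all. Each group is an established line grown in culture plates, so no animal or patient replicates stand behind the values.

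Library totals lay between 13791428 and 28821665 counted reads. CLS-439 stood apart from the other lines: reads of the mitochondrially encoded genes made up 0.0238% to 0.0283% of its libraries, against 3.21% to 7.40% in the 18 libraries of T24, 5637 and TCC-SUP. Processed pseudogenes took 2.97% to 3.25% of the reads in CLS-439 and 0.179% to 0.272% in the other lines. A mismatch of CLS-439 reads with the human reference was not tested for, and the part of these values in its results was not tested. Keratin genes were found in every line, with untreated KRT8 at a mean of 1830 CPM (counts scaled to library size) in T24, 1300 CPM in 5637, 654 CPM in CLS-439 and 153 CPM in TCC-SUP. Other epithelial markers were near 0 in some lines: KRT5 and CDH1 were at 0.0152 and 0.0129 CPM in untreated T24, and KRT19 and KRT5 at 0.814 and 0.181 CPM in untreated CLS-439. EPCAM was at 2.9 CPM in untreated T24 and 5.48 CPM in untreated TCC-SUP. Others were high: EPCAM was at 50.2 CPM in untreated CLS-439 and 174 CPM in untreated 5637. KRT7 was at 2900, 1940, 1790 and 32.6 CPM in untreated T24, 5637, CLS-439 and TCC-SUP. KRT18 was at 1220, 756, 153 and 1950 CPM in the same order. CDH1 was at 174 CPM in untreated 5637 and 43.5 CPM in untreated TCC-SUP. The uroplakin genes UPK2 and UPK3A, which mark differentiated urothelium, were at most 0.293 CPM in any untreated line. GATA3 was at 1.98 CPM in untreated CLS-439 and at 29.4 to 57.6 CPM in the other untreated lines. The collagen genes COL1A1 and COL1A2, which mark fibroblasts, were at 4300 and 4120 CPM in untreated TCC-SUP. In untreated CLS-439 COL1A1 was at 1700 CPM and COL1A2 at 0.0524 CPM. The leukocyte marker PTPRC was at 30 CPM in untreated TCC-SUP and at most 0.101 CPM in the other untreated lines.

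The 78 genes lay on 21 chromosomes and were short, with a median span of 11937 bp against 27135 bp for all protein-coding genes of the table. A divergent neighbour, a gene on the other strand whose start lies within 1000 bp, was annotated for 17 of them (21.8%), against 7.39% of protein-coding genes. MRPL46 and MRPS11 are each other's divergent neighbour on chromosome 15, with 34 bp between their starts. Exons of 41 members overlap exons of another gene and 34 members have named pseudogenes, so their counts could hold or lose reads of those genes.

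RefSeq promoters on GRCh38.p14, from 250 bases before to 50 bases after the gene start, were matched for 69 of the 78 members. On either strand, the letters AAGATGGC, a core of the motif of the factor YY1, were found in 20 of these (29%) and in 3.91% of all 15843 promoters. The ETS letters CCGGAAG were found in 29 member promoters (42.0%) and in 14.2% of all promoters. These strings can overlap, since the last letters of the ETS string are the first of the YY1 string. The core of the NRF1 motif was in 8 member promoters (11.6% against 8.58% of all), the NF-Y letters CCAAT in 20 (29% against 36.4%) and the GC box GGGCGG in 42 (60.9% against 58.5%). A match is a description of the letters and not a bound site.

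1 member with the YY1 letters, MRPL22, is left out of the positions and stretches that follow. Its letters lie less than 11 bases from an end of the promoter window. The other 19 held 20 matches, of which 15 lay within 50 bases of the gene start and 16 read in the direction of the gene. In 11 of the 20 the ATG of the letters is an annotated start codon of the member. The stretches below are from members whose levels are described further on. They are printed 5′ to 3′ on the strand named, with the YY1 letters in capitals, from RefSeq on GRCh38.p14.
MRPS24, chr7:43869480-43869509, minus strand: ccgcttggcccAAGATGGCggcctccgtgt
MRPL38, chr17:75904860-75904889, minus strand: aggccggagggAAGATGGCggcgccctggt
MRPL46, chr15:88467362-88467391, minus strand: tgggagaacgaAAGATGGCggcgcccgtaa
MRPS30, chr5:44808949-44808978, plus strand: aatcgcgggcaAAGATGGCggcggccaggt
MRPS27, chr5:72320206-72320235, minus strand: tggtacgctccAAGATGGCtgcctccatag
MRPS18B, chr6:30617852-30617881, plus strand: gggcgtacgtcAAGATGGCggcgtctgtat
MRPL42, chr12:93467511-93467540, plus strand: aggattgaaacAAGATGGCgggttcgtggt
MRPL36, chr5:1799854-1799883, plus strand: tgccaggaaggAAGATGGCggcgggggggg
MRPL32, chr7:42932143-42932172, minus strand: ctcttcgggtaAAGATGGCggagcgcgggt
In MRPS24, MRPL38, MRPL46, MRPS30, MRPS27 and MRPS18B the capitals hold the annotated start codon. In MRPL36 and MRPL32 the letters read against the direction of the gene and lie at -35 and -222 from its start. Medians of the log2 fold change after MMC were taken over all 20 members with the YY1 letters, MRPL22 included, and over those without. With and without the letters they were 0.12 and 0.05 in T24, 0.06 and -0.06 in 5637, and 0.12 and 0.07 in TCC-SUP.

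The first question was how MMC changed these genes in each line. Most changed little: a log2 fold change under 0.5 in size was found for 78.2% of the members in T24 and 53.1% of all genes tested. The shares were 82.1% of members and 53.7% of all genes in 5637 and 96.2% of members and 81.5% of all genes in CLS-439. TCC-SUP had 78.2% of members and 59.6% of all genes in that range. The members were at a higher level, with a median of 54.6 CPM against 9.65 CPM for all genes tested. The part of level in these shares was not tested. The median log2 fold change of the members was 0.08 in T24, 0.07 in TCC-SUP, -0.06 in 5637 and -0.07 in CLS-439, against 0 for all genes tested in each line. Fewer cells and less RNA per cell cannot be told apart in these libraries, since all values are relative to the total of each library.

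Genes were called changed at an adjusted p under 0.05 in edgeR's quasi-likelihood test with Benjamini-Hochberg adjustment over all genes tested. In T24, 12 members rose and 9 fell, where 28.6% of all genes tested were called, 15.2% higher and 13.4% lower. In 5637, 9 members rose and 8 fell, where 29.4% of all genes were called, 15.9% higher and 13.6% lower. In TCC-SUP, 12 members rose and 3 fell, where 20.7% of all genes were called, 9.57% higher and 11.1% lower. By symbol, 9 MRPL and 3 MRPS genes rose in T24, 6 and 3 in 5637, and 7 and 5 in TCC-SUP, where MRPS30, whose protein lies in the large subunit, is among the 5. Without the CLS-439 libraries in the fit, 1 member in place of 3 was called lower in TCC-SUP.

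In CLS-439 no member was called in either direction by edgeR, where 0.62% of all genes tested were called, 0.298% higher and 0.322% lower. At an unadjusted p under 0.05 there were 3 members, DESeq2 called 0, and a fit of the CLS-439 libraries alone called 3 lower. The member with the smallest p was MRPL28, at 88.2, 81.3 and 81.5 CPM after MMC and 126, 118 and 116 CPM untreated (log2 fold change -0.52, SE 0.18, edgeR adjusted p = 0.322). Every treated CLS-439 library was below every untreated one for this gene, but the difference did not pass the threshold.

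Counting instead the members whose 3 treated libraries all lay on one side of the 3 untreated ones gave 17 higher and 11 lower in T24, where 18% and 16.6% of all genes tested did so. In 5637 there were 13 higher and 15 lower (20.7% and 19.8% of all genes), in TCC-SUP 26 higher and 7 lower (18.5% and 19.2%), and in CLS-439 3 higher and 14 lower (11% and 11%). By this count TCC-SUP had the most members higher and CLS-439 the fewest.

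**Figure D1:**
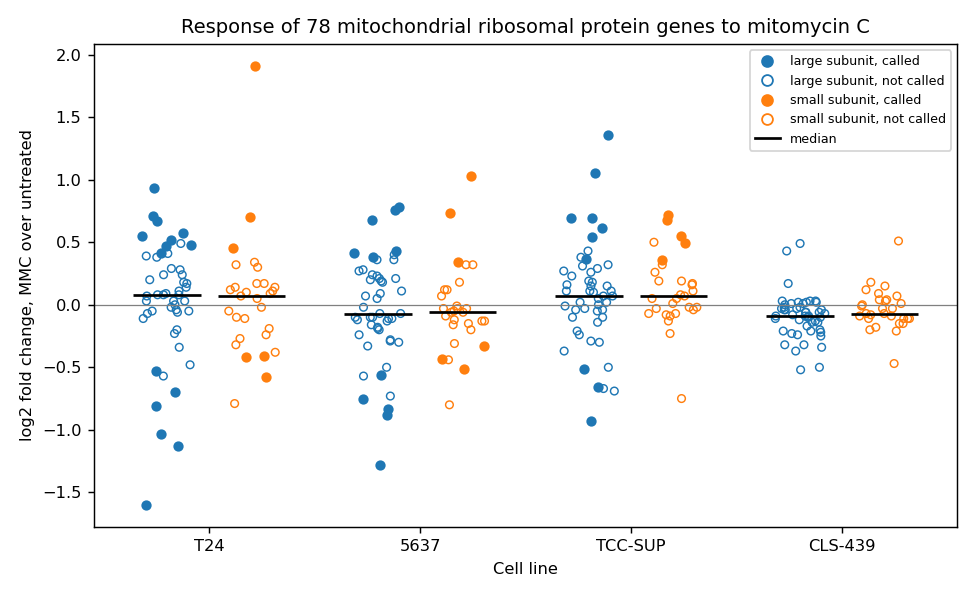
Log2 fold change of MMC-treated over untreated cells (vertical axis) for each of the 78 members in the 4 lines, with MRPL symbols in blue and MRPS symbols in orange. Filled points passed an adjusted p of 0.05 and bars are medians; most points lie within 0.5 of 0, and none is filled in CLS-439.

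Calls in the same direction in T24, 5637 and TCC-SUP were made for 8 of the 78 members, 6 higher and 2 lower. Of all genes tested, 8.31% were called in the same direction in all 3 lines, 4.09% higher and 4.23% lower, so the share of members was near the background. The 6 that rose were MRPL10, MRPL37, MRPL49, MRPL53, MRPS11 and MRPS24, and the 2 that fell were MRPL24 and MRPL48. A further 3 members rose in 2 of these lines (MRPL32, MRPL36 and MRPS12) and 3 fell in 2 (MRPL3, MRPL19 and MRPS35). No member was called in opposite directions and 47 were called in none. Of the 20820 genes tested, 1519 rose in 2 of these lines and 1277 fell in 2. Of the same genes, 155 were called in opposite directions and 10852 in none of the lines.

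MRPL10 (ENSG00000159111, chr17:47823272-47831534) encodes the protein that anchors the factor-binding stalk of the large subunit. It had 137, 116 and 130 CPM in treated T24 and 67.7, 69.9 and 63.0 CPM in untreated T24, a log2 fold change of 0.93 (SE 0.15, edgeR adjusted p = 6.09e-05). In 5637 it had 87.9, 99.5 and 94.0 CPM after MMC and 77.2, 68.6 and 63.2 CPM untreated (0.43, SE 0.15, edgeR adjusted p = 0.0344). Treated libraries lay above untreated ones in both lines. TCC-SUP had 60.4, 93.8 and 65.8 CPM after MMC and 44.7, 46.7 and 44.8 CPM untreated (0.69, SE 0.15, edgeR adjusted p = 0.00236), with treated replicate 3 well above the other treated libraries.

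MRPL49 (ENSG00000149792, chr11:65122183-65127371), a large subunit protein found in mitochondria only, was at 310, 291 and 300 CPM in treated T24 and 185, 198 and 169 CPM in untreated T24. In 5637 it was at 191, 186 and 170 CPM after MMC and 111, 105 and 102 CPM untreated. In TCC-SUP it was at 104, 131 and 110 CPM after MMC and 73.2, 67.5 and 73.1 CPM untreated. No treated library overlapped an untreated one in these lines, and the log2 fold changes of 0.71, 0.78 and 0.69 (SE 0.11 each) were close to each other. MRPL49 overlaps FAU and SYVN1 on the other strand. FAU was not called in T24, 5637 or TCC-SUP, and SYVN1 was called only in T24, where it rose by 0.41.

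MRPL37 (ENSG00000116221, chr1:54184041-54225464), another mitochondria-specific large subunit protein, had the smallest rises of the 6. It was at 276, 232 and 254 CPM in treated T24 and 186, 190 and 175 CPM in untreated T24, and its log2 fold changes were 0.47 in T24, 0.41 in 5637 and 0.37 in TCC-SUP (SE 0.11 each). MRPL53 (ENSG00000204822, chr2:74471958-74473322), also a large subunit protein, was low. It was at 3.88, 4.52 and 3.80 CPM in treated TCC-SUP and 2.10, 2.04 and 1.76 CPM in untreated TCC-SUP, a log2 fold change of 1.05 (SE 0.19, edgeR adjusted p = 0.000461). It also rose by 0.57 in T24 and by 0.76 in 5637. MRPL53 shares exon sequence on the same strand with CCDC142, which rose by 0.85, 0.78 and 0.73 in T24, 5637 and TCC-SUP, and reads of the pair cannot be told apart from the table.

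Among small subunit genes, MRPS11 (ENSG00000181991, chr15:88467453-88480773) encodes a protein of the platform of the small subunit. It was at 126, 110 and 115 CPM in treated T24 and 76.6, 74.4 and 64.7 CPM in untreated T24 (log2 fold change 0.70, SE 0.13, edgeR adjusted p = 0.000236). In 5637 it was at 50.2, 58.7 and 52.0 CPM after MMC and 35.4, 32.3 and 29.1 CPM untreated (0.73, SE 0.13), and in TCC-SUP it rose by 0.55 (SE 0.13). The groups did not overlap in these 3 lines. Its divergent neighbour MRPL46, whose start is 34 bp away, rose by 0.67 in T24 (SE 0.16, edgeR adjusted p = 0.00272). MRPL46 was not called in 5637 (0.23, SE 0.17) or TCC-SUP (0.32, SE 0.17).

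MRPS24 (ENSG00000062582, chr7:43866558-43869893) encodes a small subunit protein near the mRNA entry and had the largest log2 rise of the set in T24 and in 5637. It was at 5.52, 4.32 and 6.33 CPM in treated T24 and 1.08, 1.74 and 1.47 CPM in untreated T24, a log2 fold change of 1.91 (SE 0.26, edgeR adjusted p = 7.57e-06). In 5637 it was at 12.9, 8.75 and 10.4 CPM after MMC and 6.25, 4.59 and 4.83 CPM untreated (1.03, SE 0.24). In TCC-SUP it was at 6.21, 7.98 and 5.63 CPM after MMC and 3.74, 3.68 and 4.94 CPM untreated (0.68, SE 0.24, edgeR adjusted p = 0.0457). All treated libraries were above all untreated ones in these lines, but the TCC-SUP call was lost when the CLS-439 libraries left the fit. Exons of the annotated readthrough gene URGCP-MRPS24 overlap those of MRPS24, so this low level could also reflect how reads were assigned, which was not tested.

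The falls were led by MRPL48 (ENSG00000175581, chr11:73787316-73865133), a mitochondria-specific large subunit protein. It was at 17.6, 13.6 and 15.1 CPM in treated T24 and 34.8, 32.9 and 33.6 CPM in untreated T24 (log2 fold change -1.13, SE 0.17, edgeR adjusted p = 3.19e-05). In 5637 it was at 28.0, 17.0 and 15.8 CPM after MMC and 53.6, 48.6 and 45.1 CPM untreated (-1.28, SE 0.17). In TCC-SUP it was at 19.4, 15.5 and 14.7 CPM after MMC and 31.7, 30.1 and 32.6 CPM untreated (-0.93, SE 0.17). Every treated library was below every untreated library of its line.

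MRPL24 (ENSG00000143314, chr1:156737303-156741590) encodes a large subunit protein with a bacterial relative that binds early in assembly. It was at 29.4, 24.7 and 21.1 CPM in treated 5637 and 49.8, 45.3 and 43.0 CPM in untreated 5637 (log2 fold change -0.88, SE 0.18, edgeR adjusted p = 0.000702). In T24 it was at 64.1, 33.1 and 35.6 CPM after MMC and 70.6, 65.0 and 56.5 CPM untreated (-0.53, SE 0.18, edgeR adjusted p = 0.0272). Treated replicate 1 of T24 lay within the untreated range, so the groups overlapped there. TCC-SUP fell by 0.51 (SE 0.18, edgeR adjusted p = 0.0434), a call that was lost without the CLS-439 libraries. In CLS-439 the 8 genes had log2 fold changes from -0.32 (MRPL24) to 0.51 (MRPS24), and none was called.

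**Figure D2:**
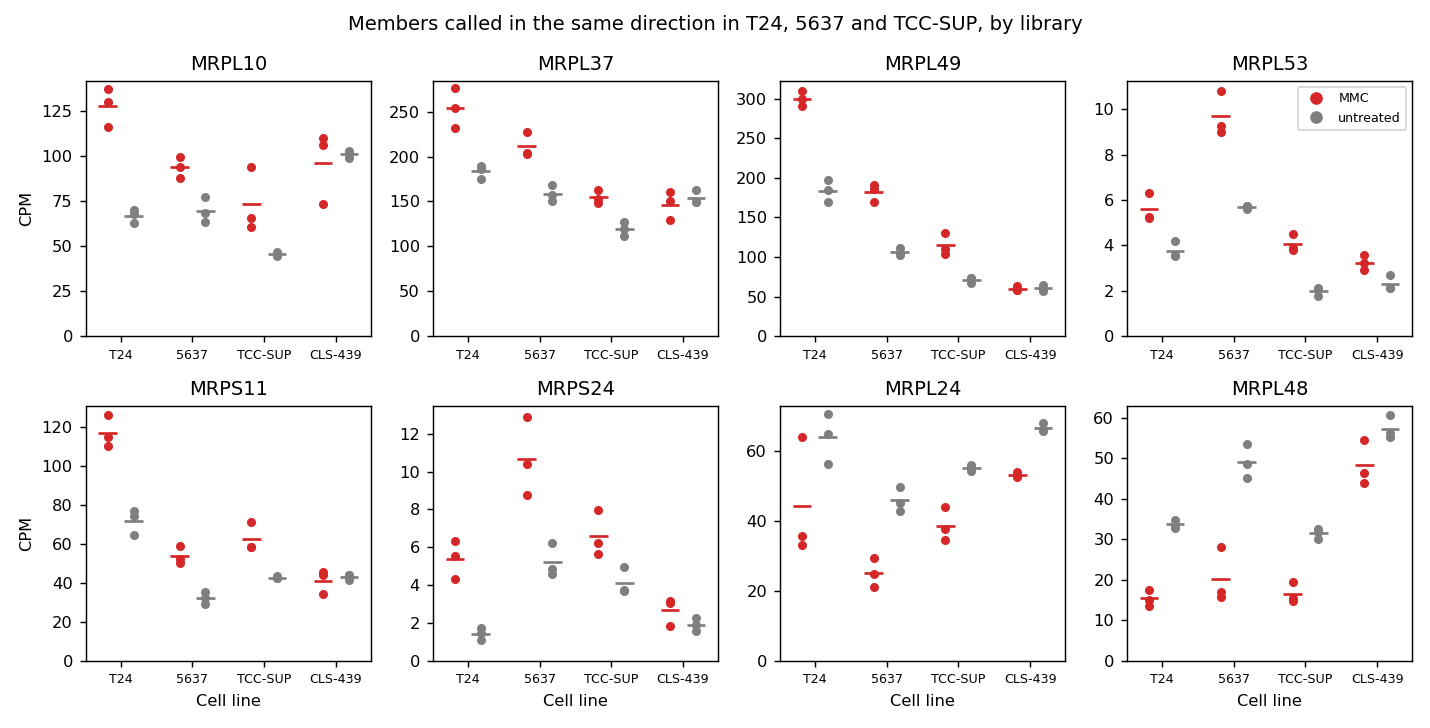
CPM (vertical axis, linear from 0, scaled per panel) in every library of the 4 lines for the 8 members called in the same direction in T24, 5637 and TCC-SUP, with MMC in red left of untreated in grey and bars at the means of 3 libraries. In T24, 5637 and TCC-SUP, MRPL24 and MRPL48 lie lower after MMC and the other 6 lie higher, and among these lines the groups overlap only for MRPL24 in T24. None of the 8 was called in CLS-439.

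How many of these 8 stayed called depended on the libraries and the genes kept. With no filter on low counts, MRPL24, MRPL48, MRPL49 and MRPS11 were called in all 3 lines, MRPL10, MRPL53 and MRPS24 in 2 and MRPL37 in 1. Without the CLS-439 libraries, 6 were called in all 3 and MRPL24 and MRPS24 in 2. Without replicate 3 of every group, MRPL48 and MRPL49 were still called in all 3 lines. Without replicate 4, MRPL49 alone was. Without replicate 1, 7 were, with MRPS24 called in 2 lines. All 8 were called in the 3 lines with DESeq2, with another scaling of library size and with replicate number as a block.

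The largest fall in a single line was that of MRPL1, which encodes the mobile stalk protein near the tRNA exit site. It was at 20.7, 10.8 and 12.5 CPM in treated T24 and 46.0, 46.7 and 40.3 CPM in untreated T24 (log2 fold change -1.60, SE 0.24, edgeR adjusted p = 3.02e-05). Its values were -0.57 (SE 0.24) in 5637 and -0.69 (SE 0.25) in TCC-SUP, and neither passed the threshold. MRPL3, a core protein of the large subunit, was at 137, 104 and 114 CPM in treated T24 and 210, 208 and 205 CPM in untreated T24 (-0.81, SE 0.13). It fell by 0.75 in 5637 (SE 0.13) and was -0.24 (SE 0.13) in TCC-SUP, not called.

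MRPL19, a large subunit protein with a bacterial relative at the subunit interface, fell by 1.03 in T24 (SE 0.19) and by 0.83 in 5637 (SE 0.19). The small subunit gene MRPS35 fell by 0.58 in T24 and by 0.51 in 5637 (SE 0.13 each). MRPL42 fell by 0.70 in T24 (SE 0.18), MRPL28 by 0.56 in 5637 (SE 0.18) and MRPL23 by 0.66 in TCC-SUP (SE 0.22). For several of these genes treated replicate 1 was the least lowered: MRPL19 was at 51.7 CPM in treated T24 replicate 1, against 30.6 and 31.4 CPM in treated replicates 3 and 4. The summed level of the 78 genes was also highest in that replicate in treated T24, as given below.

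Among rises in fewer lines, MRPS12, the small subunit protein of the decoding centre, was at 42.9, 61.6 and 43.5 CPM in treated TCC-SUP and 26.9, 32.2 and 30.7 CPM in untreated TCC-SUP (log2 fold change 0.72, SE 0.17, edgeR adjusted p = 0.00342). It also rose by 0.45 in T24. MRPL32, whose protein is matured by a mitochondrial protease before it joins the ribosome, rose by 0.61 in TCC-SUP (SE 0.12) and by 0.48 in T24 (SE 0.12). MRPL36 rose by 0.52 in T24 and by 0.38 in 5637 (SE 0.13 each). MRPL44, a protein related to a ribonuclease, rose by 0.54 in TCC-SUP (SE 0.17).

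MRPL38 encodes a protein of the central protuberance of the large subunit. It was at 5.37, 15.2 and 7.88 CPM in treated TCC-SUP and 3.01, 3.73 and 4.37 CPM in untreated TCC-SUP (log2 fold change 1.36, SE 0.27, edgeR adjusted p = 0.00100). Treated replicate 3 was the highest of these. Exons of MRPL38 overlap on the same strand those of AC087289.3, which was also called higher in TCC-SUP (1.51) at 0.411 CPM after MMC and 0.141 CPM untreated.

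Some members have been studied for other roles. MRPL41, reported in other cells to act in cell death with p53, was at 46.0, 40.7 and 40.0 CPM in treated 5637 and 26.1, 24.5 and 28.4 CPM in untreated 5637 (log2 fold change 0.68, SE 0.21, edgeR adjusted p = 0.0160). It was not called in T24 (0.39, SE 0.21), TCC-SUP (0.38, SE 0.21) or CLS-439 (-0.12, SE 0.21). MRPL12, the stalk protein that contacts translation factors, was not called in any line, and its libraries varied widely, with 20.5, 7.60 and 10.4 CPM in treated T24 and 14.8, 9.78 and 14.2 CPM in untreated T24. Its log2 fold changes were -0.02 in T24, -0.33 in 5637 and -0.50 in both TCC-SUP and CLS-439 (SE 0.32 to 0.34). Exons of MRPL12 overlap those of AC139530.2 on the same strand, and the part of read assignment in these values was not tested. MRPL18, whose relatives bind a small ribosomal RNA in other ribosomes, was not called in any line, with log2 fold changes from -0.21 in CLS-439 to 0.15 in TCC-SUP.

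The 3 relatives of one bacterial small subunit protein, MRPS18A, MRPS18B and MRPS18C, were not called in any line. Their log2 fold changes lay between -0.02 (MRPS18B in TCC-SUP) and 0.34 (MRPS18A in T24). MRPS30 was at 73.3, 93.1 and 104 CPM in treated TCC-SUP and 68.0, 68.8 and 56.5 CPM in untreated TCC-SUP, so the groups did not overlap (0.49, SE 0.13, edgeR adjusted p = 0.0105). It was not called in T24 (0.14), 5637 (0.12) or CLS-439 (-0.11). MRPS27, an RNA-binding protein of the small subunit, was at 94.3, 90.2 and 82.4 CPM in treated 5637 and 117, 111 and 107 CPM in untreated 5637 (-0.33, SE 0.11, edgeR adjusted p = 0.0202). It was not called in T24 (-0.19), TCC-SUP (0.01) or CLS-439 (0.04). MRPS36 was not called in any line, with values from -0.24 in T24 to 0.18 in CLS-439.

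Of the 17 members with a divergent neighbour, 6 rose in T24 (35.3%), 4 in 5637 (23.5%) and 3 in TCC-SUP (17.6%), and none was called lower in these lines. Among all 1320 tested protein-coding genes with such a neighbour, 19.8% were higher and 15.5% lower in T24. In 5637 19% were higher and 14.8% lower, and TCC-SUP had 13.3% higher and 9.47% lower. The difference between the members and these genes was not tested. The median log2 fold change of the 17 members was 0.18, 0.19 and 0.23 in T24, 5637 and TCC-SUP. That of the 1320 genes was 0.06, 0.03 and 0.07 in the same lines. Of the 16 neighbours tested, 6 rose and 1 fell in T24, 5 rose in 5637 and 4 rose in TCC-SUP. MRPL46 and MRPS11 count in both sets, since each is the neighbour of the other.

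The mean response of T24, 5637 and TCC-SUP gave 19 members higher and 13 lower, where 43.2% of all genes tested were called, 23.3% higher and 19.9% lower. The median log2 fold change of the members was 0.04, against 0.02 for all genes. Besides the genes above, MRPS28 (-0.78) and MRPL54 (-0.66) were called lower in the mean although neither was called in any single line. Whether responses differed among the 3 lines was tested for each gene. No member was called by edgeR, where 6.86% of all genes tested were, with 7 members at an unadjusted p under 0.05 and 2 called by DESeq2. MRPS24 had the smallest p of the members (edgeR adjusted p = 0.0701), followed by MRPL30, MRPL3, MRPL1, MRPL38 and MRPS35. MRPL30 was at 39.4, 55.2 and 49.5 CPM in treated T24 and 32.7, 33.8 and 32.3 CPM in untreated T24 (log2 fold change 0.55, SE 0.16), and at -0.19 (SE 0.15) in 5637.

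Genes at like levels were called more often than members. Between 35.6 and 76.6 CPM, the middle of the members' range, 40.3% of 3022 genes were called in T24, 35.6% in 5637 and 27.7% in TCC-SUP. Of the 38 members in that range, 28.9%, 13.2% and 18.4% were called in the same lines. No test of this difference was made.

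Summed over the 78 genes, levels in TCC-SUP were 3922, 3958 and 3956 CPM after MMC and 3543, 3726 and 3762 CPM untreated, with no overlap. As a share of all counted reads, before scaling, the sum was 0.396% to 0.408% after MMC and 0.336% to 0.349% untreated in that line. T24 had 5886, 4620 and 5041 CPM after MMC and 5082, 5069 and 4818 CPM untreated, so its groups overlapped. Before scaling, its shares of reads in replicates 1, 3 and 4 were 0.556%, 0.466% and 0.517% after MMC and 0.472%, 0.459% and 0.443% untreated. In 5637 the sums were 5370, 4738 and 4314 CPM after MMC and 5271, 4892 and 4581 CPM untreated, with replicate 1 highest and replicate 4 lowest in both groups. The shares before scaling were 0.515%, 0.484% and 0.440% after MMC and 0.473%, 0.441% and 0.419% untreated. Between libraries of the same number, the unscaled share was thus higher after MMC in all 3 pairs of 5637, while the scaled sum was higher in replicate 1 and lower in replicates 3 and 4. CLS-439 had 4266, 4776 and 4599 CPM after MMC and 4851, 4924 and 4765 CPM untreated, again with an overlap, and the treated library was the lower one for each replicate number.

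**Figure D3:**
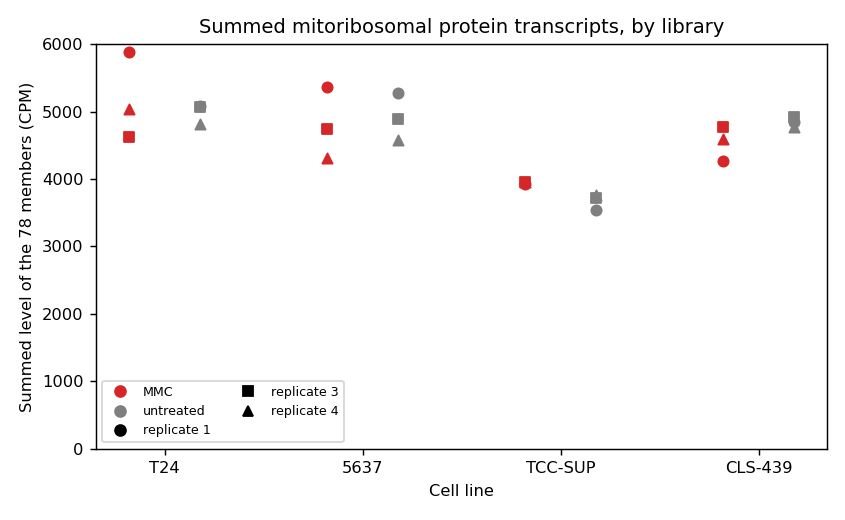
Summed CPM of the 78 members in each library (vertical axis, from 0) for the 4 lines, with MMC in red left of untreated in grey and a marker shape for each replicate number. Treated and untreated libraries overlap in T24, 5637 and CLS-439, and in TCC-SUP the treated ones (3922 to 3958) lie above the untreated ones (3543 to 3762).

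More members differed between untreated lines than between treated and untreated cells of a line, as the counts here and above show. The same held for all genes: 45.5% to 54.4% were called between untreated T24, 5637 and TCC-SUP, against 20.7% to 29.4% after MMC. Each untreated comparison also drew on more libraries than a comparison of treated with untreated cells. Levels in TCC-SUP were mostly low: against the mean of untreated T24 and 5637, 45 members were lower and 7 higher in untreated TCC-SUP, with a median log2 difference of -0.43. The 87 cytosolic ribosomal protein genes gave 52 lower and 4 higher in the same comparison, with a median of -0.48. Of all genes tested, 54.4% were called in that comparison, 24% lower and 30.4% higher, with a median of 0.02. In untreated 5637, 35 members were higher and 10 lower than the mean of untreated T24 and TCC-SUP (50.8% of all genes called, 27.3% and 23.5%; member median 0.27). In untreated T24, 29 were higher and 5 lower than the mean of untreated 5637 and TCC-SUP (45.5% of all genes called, 22.8% and 22.7%; member median 0.17). These comparisons share libraries and are not independent.

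The gene lowest in untreated TCC-SUP relative to T24 and 5637 was MRPL1, at 14.0, 11.3 and 10.6 CPM in TCC-SUP, against 46.0, 46.7 and 40.3 CPM in T24 and 31.8, 30.6 and 26.3 CPM in 5637 (log2 difference -1.60, SE 0.22, edgeR adjusted p = 1.21e-06). MRPL19 (-1.52, SE 0.18) and MRPL12 (-1.41, SE 0.30) followed. No TCC-SUP library reached the lowest T24 or 5637 library for MRPL1. Members higher in TCC-SUP were MRPS21 (1.17, SE 0.12), MRPL14 (0.71, SE 0.14) and MRPS18B (0.47, SE 0.14), each a protein with a bacterial relative.

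MRPS21 had the largest difference in T24, at 29.4, 24.3 and 21.9 CPM in untreated T24, against 93.8, 79.9 and 76.3 CPM in 5637 and 103, 96.4 and 110 CPM in TCC-SUP (log2 difference -1.88, SE 0.14, edgeR adjusted p = 2.60e-11). MRPS17 (-0.45) and MRPL32 (-0.43) were also lower in T24. Higher in T24 were MRPL1 (1.24, SE 0.20), MRPL17 (1.22, SE 0.13) and MRPL49 (1.08, SE 0.09). MRPL17 was at 146, 149 and 132 CPM in T24, against 71.7, 61.5 and 59.6 CPM in 5637 and 50.9, 64.6 and 59.0 CPM in TCC-SUP. All T24 libraries were thus above all libraries of the other 2 lines.

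In untreated 5637 the largest differences were in MRPL12 (log2 difference 1.51, SE 0.27), MRPL30 (1.43, SE 0.13) and MRPL39 (1.42, SE 0.12), all of the large subunit. MRPL39 was at 111, 104 and 90.8 CPM in 5637, against 47.2, 50.9 and 53.5 CPM in T24 and 28.7, 30 and 27.1 CPM in TCC-SUP. MRPL12 was at 28.4, 27.0 and 26.2 CPM in 5637, against 14.8, 9.78 and 14.2 CPM in T24 and 5.34, 8.24 and 7.65 CPM in TCC-SUP. For both genes 5637 was above every library of the other lines. Exons of MRPL12 overlap those of AC139530.2 on the same strand, and exons of MRPL30 overlap those of AC079447.1 and AC092587.1. The part of read assignment in the values of MRPL12 and MRPL30 was not tested. Lower in 5637 were MRPS11 and MRPS18B (-0.78 each) and MRPL57 (-0.63).

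CLS-439 was compared with the mean of the other 3 untreated lines, with the doubt given above. There 30 members were higher and 19 lower, where 74.6% of all genes tested were called, 40.4% higher and 34.2% lower. MRPL36 was at 8.07, 7.08 and 6.54 CPM in CLS-439 and between 33.1 and 46.4 CPM in the other untreated libraries (log2 difference -2.41, SE 0.12, edgeR adjusted p = 4.47e-15). MRPL52 (-1.89, SE 0.15) and MRPS17 (-1.66, SE 0.15) were lower too. MRPL1 (1.26, SE 0.18), MRPL34 (1.18, SE 0.19) and MRPL2 (1.12, SE 0.12) were higher.

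**Figure D4:**
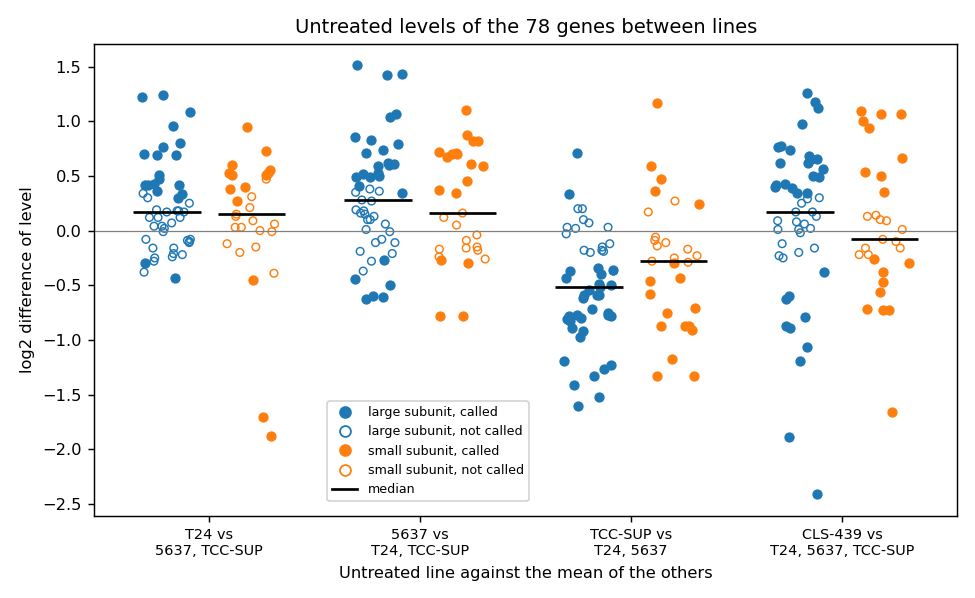
Log2 difference in level of each untreated line from the mean of the other untreated lines named (vertical axis) for each of the 78 members, with MRPL symbols in blue and MRPS symbols in orange, filled where the adjusted p was under 0.05. Bars are medians, and in TCC-SUP most points lie below 0 (45 called lower and 7 higher).

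Per kb of exon, the highest untreated levels, as means of T24, 5637 and TCC-SUP, were those of MRPL51 (85.9 CPM per kb), MRPL15 (70.5), MRPS34 (65.4), MRPL3 (65.3) and MRPL37 (60.3). MRPL51 was at 103 ± 11 CPM per kb in T24, 85.4 ± 6.77 in TCC-SUP, 72.0 ± 5.26 in CLS-439 and 69.2 ± 9.63 in 5637 (SD, n = 3 each). For this gene the range of 5637 overlapped those of TCC-SUP and CLS-439. The lowest were MRPS24 (1.37 CPM per kb), MRPL46 (1.40), MRPL38 (1.54), MRPL53 (2.83) and MRPL42 (3.39). Exons of all 5 overlap those of another gene on the same strand, and MRPS24 and MRPL53 are also among the 8 called in 3 lines. MRPL42 has 16393 bp of annotated exon, against a median of 2539 bp for the members. Not divided by length, it was at 65.5, 63.4 and 37.6 CPM in untreated T24, 5637 and TCC-SUP. The order of the members by untreated CPM, not divided by length, was similar between lines. Spearman's rho over the 78 genes was from 0.67 (TCC-SUP and CLS-439) to 0.81 (T24 and 5637). Genes are not independent replicates, and gene length is shared between lines.

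Other genes of mitochondrial translation were followed as lists. The mitochondrially encoded ribosomal RNAs, which the members bind, both rose in T24 and TCC-SUP and 1 of them rose in 5637. MT-RNR2, the large subunit RNA, was at 7520, 20000 and 13400 CPM in treated TCC-SUP and 5200, 4210 and 3590 CPM in untreated TCC-SUP (log2 fold change 1.66, SE 0.23, edgeR adjusted p = 4.90e-05). It rose by 1.18 in T24 and by 0.88 in 5637 (SE 0.23 each), and treated libraries lay above untreated ones in all 3 lines. MT-RNR1, the small subunit RNA, rose by 1.55 in TCC-SUP and by 0.86 in T24 (SE 0.23 each) and was 0.32 (SE 0.23) in 5637, not called. The libraries were made from poly(A) RNA, so these values cover the part of the ribosomal RNA that was captured.

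Among 27 assembly and ribosomal RNA modification factors, 6 rose and 3 fell in T24 (22.2% and 11.1%, against 15.2% and 13.4% of all genes tested). In 5637 4 rose and 5 fell (14.8% and 18.5%, against 15.9% and 13.6%), and in TCC-SUP 5 rose and 1 fell (18.5% and 3.7%, against 9.57% and 11.1%). The methyltransferase genes MRM2 and MRM3, whose products modify the large subunit RNA, and MTG2, a GTPase of large subunit assembly, rose in all 3 lines. MRM2 was at 156, 213 and 165 CPM in treated 5637 and 88.8, 86.1 and 74.5 CPM in untreated 5637 (log2 fold change 1.10, SE 0.16), with rises of 0.66 in T24 and 0.95 in TCC-SUP. MRM3 rose by 1.15, 0.79 and 0.82 in T24, 5637 and TCC-SUP, and MTG2 by 0.67, 0.43 and 0.64. TFB1M, a methyltransferase of the small subunit RNA, fell by 0.70 in T24 and by 0.78 in 5637, and FASTKD2 fell by 0.73 and by 0.85 in the same lines.

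Of 14 translation factors, 3 rose and 3 fell in T24, 1 rose and 3 fell in 5637, and 1 rose in TCC-SUP. These are 21.4% higher and 21.4% lower in T24, 7.14% and 21.4% in 5637, and 7.14% and 0% in TCC-SUP, to be read against the shares of all genes just given. MTIF2, the initiation factor, fell by 0.49 in T24 and by 0.64 in 5637. Of 10 genes of mitochondrial transcription and RNA stability, 1 rose and 2 fell in T24 (10% and 20%, against 15.2% and 13.4% of all genes). In 5637 5 of them fell (50%, against 13.6% of all genes) and in TCC-SUP 2 rose (20%, against 9.57%). The elongation factor gene TEFM fell by 0.59 in T24 and by 0.39 in 5637. Of the 5 mitoribosomal proteins with other symbols, 1 was called, PTCD3, which fell by 0.59 in 5637. Of 13 mitochondrially encoded mRNAs, 4 fell in T24 (30.8%, against 13.4% of all genes) and 1 in 5637 (7.69%, against 13.6%). For these mRNAs edgeR made no call in TCC-SUP (0 at an unadjusted p under 0.05, log2 fold changes from -0.26 to 0.47). In CLS-439 edgeR called none of the listed genes, with at most 1 gene of a list at an unadjusted p under 0.05. The median log2 fold change of the assembly factors was 0.06 in T24, 0.02 in 5637 and 0.19 in TCC-SUP.

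**Figure D5:**
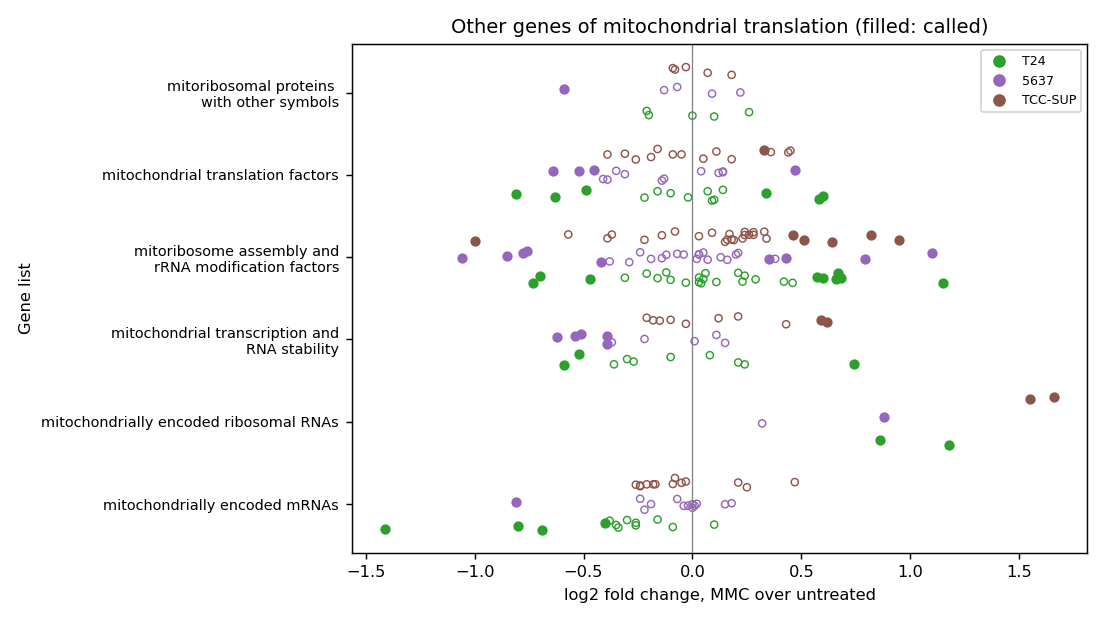
Log2 fold change of MMC-treated over untreated cells (horizontal axis) for each gene of 6 lists of mitochondrial translation in T24 (green), 5637 (purple) and TCC-SUP (brown), filled where the adjusted p was under 0.05. The point furthest to the right is MT-RNR2 in TCC-SUP, at 1.66.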

How the data were processed

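The values are raw counts of reads, 1 per Ensembl gene ID and library, as deposited by the authors, not normalized. Reads were handled with STAR 2.5.3a, featureCounts 1.6.2 and GRCh38, per the submitters' processing notes. Strandedness of counting, annotation release and handling of multimapping reads: not given in the sources used here. Counts of overlapping genes and of near-identical copies are therefore uncertain. Symbols, coordinates and exon lengths come from GENCODE release 29 (GRCh38), matched by gene ID.

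The test was edgeR 4.0.16 under R 4.3.3 (filterByExpr by group, TMM, robust quasi-likelihood fit). All 24 libraries entered 1 fit with a mean per group (16 residual degrees of freedom, common dispersion 0.0317). The 20820 genes kept held 99.94% of the counts. CPM are counts scaled to TMM library sizes, and SE belongs to the log2 fold change. Contrasts were MMC against untreated in each line, the mean and any difference of the T24, 5637 and TCC-SUP responses, and every untreated line set against the others' mean. The script was tested on simulated data.

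The members, lists and tests were chosen with earlier results of these data known. Named members were, among those called, up to 6 rises and 6 falls per line and 3 higher and 3 lower per untreated comparison at 10 CPM or more. Members called in 3 lines, the 6 smallest p for differing responses, 9 members of known role and the 5 highest and lowest per kb were added. List genes named were called, and not all such genes are given.

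Libraries of a group differed by more than sampling noise (lowest chi-square per gene 3.83). In treated T24 this value was 116 for replicates 1 and 3, 65.5 for 1 and 4 and 19.3 for 3 and 4. Treated 5637 had 69.4, 45.8 and 20.7 in the same order, and treated TCC-SUP had 46.8, 29.5 and 34.1. Same-numbered treated and untreated libraries deviated together for every number in 5637 (correlations 0.38, 0.21 and 0.61) and in CLS-439 (0.42, 0.35 and 0.16). Their numbers could mark pairs in these lines, which was not tested. Numbers were not taken as pairs in T24 (0.5, -0.31 and 0.57) or TCC-SUP (0.07, -0.05 and -0.32), where the signs were mixed. The main test used no pairing in any line, so its SE and adjusted p do not take up deviations shared by same-numbered libraries. Alternatives were DESeq2 1.42.0, RLE size factors, no filter, a replicate block, fits without or only with CLS-439, and leaving out replicates.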

Additional observations from a re-analysis of the deposited data

Results flagged for a closer look

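No member was called for a response that differed among T24, 5637 and TCC-SUP, but 3 genes of the companion lists were. METTL15, a methyltransferase of the small subunit RNA, had log2 fold changes of -0.03 in T24, -1.06 in 5637 and -1 in TCC-SUP (edgeR adjusted p of the difference = 0.0259). MT-ND6, a mitochondrially encoded mRNA, had -1.41 in T24, -0.81 in 5637 and -0.03 in TCC-SUP (edgeR adjusted p of the difference = 0.0282). For MT-RNR1 the values were 0.86 in T24, 0.32 in 5637 and 1.55 in TCC-SUP (edgeR adjusted p of the difference = 0.0476).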

How the results depend on the processing

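With no filter on low counts, the count of members called was 7 higher in T24, 5 higher in 5637, 6 lower in TCC-SUP, 1 for the difference of responses, 3 lower in untreated T24 and 4 higher in untreated TCC-SUP. Without the CLS-439 libraries 1 was lower in TCC-SUP, and with the CLS-439 libraries alone 3 were lower there. DESeq2 called 2 for the difference and 9 lower in untreated T24. With the replicate block, 5 members were lower in TCC-SUP after MMC, and no other count of members moved by over 1.5 times. The cause was not tested.

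Leaving out replicates gave, for members higher and lower after MMC, 3 to 12 and 4 to 15 in T24, 2 to 10 and 3 to 23 in 5637, 1 to 13 and 0 to 9 in TCC-SUP, and 0 to 0 in CLS-439. The most members lower after MMC, 15 in T24, 23 in 5637 and 9 in TCC-SUP, came without replicate 1 of every group. The fewest higher, 3, 2 and 1 in the same lines, came without replicate 4. The ranges were 12 to 22 and 7 to 22 for the mean response and 0 to 6 for the difference. Untreated lines gave 16 to 33 and 3 to 6 in T24, 29 to 34 and 4 to 13 in 5637, 2 to 10 and 34 to 45 in TCC-SUP, and 24 to 32 and 14 to 21 in CLS-439.

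Single libraries mattered in 5637, where 21 members fell without treated replicate 1, 5 fell without treated replicate 4 or untreated replicate 1, and 5 rose without untreated replicate 3. In TCC-SUP 1 member fell without treated replicate 3 or any untreated replicate. The difference called 5 members without treated T24 replicate 1, 3 without treated 5637 replicate 1, 2 without treated TCC-SUP replicate 1, and 1 without treated replicate 3 of T24 or of TCC-SUP. In untreated T24, 3 were lower without replicate 1 or 4. Of the 73 comparisons of named members, none changed sign in any of these settings. Leaving out replicates lost the call in 94 refits and kept it in 749, and other settings lost 12 and kept 323. These members were named because the main fit called them, and the refits share most libraries with it. The kept calls are therefore not independent support. The median SE of a member's log2 fold change was 0.15 to 0.16. Changes well above their SE also went uncalled, such as that of MRPL1 in TCC-SUP. A member not called may thus still have changed, with 3 libraries per group.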

Other observations

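The cytosolic ribosomal protein genes were counted in the same way after MMC. Of 87 tested, 1 rose and 7 fell in T24, none rose and 43 fell in 5637, 1 rose and 6 fell in TCC-SUP, and none was called in CLS-439 (3 at an unadjusted p under 0.05). Those lower were 8.05% in T24, 49.4% in 5637 and 6.9% in TCC-SUP, against 13.4%, 13.6% and 11.1% of all genes tested. Those higher were 1.15%, 0% and 1.15%, against 15.2%, 15.9% and 9.57% of all genes. The median log2 fold change of the cytosolic genes was -0.40 in 5637, -0.18 in TCC-SUP, -0.14 in CLS-439 and -0.07 in T24. In 5637 the mitochondrial members had a median of -0.06, with 9 higher and 8 lower. The difference between the sets was not tested.

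Longer members tended to lower values after MMC in T24, 5637 and TCC-SUP, as did longer genes in general. Spearman's rho between span and log2 fold change over the 78 members was -0.32 in T24, where it was -0.16 over all genes tested. It was -0.25 over members and -0.23 over all genes in 5637, and 0.14 over members and -0.01 over all genes in CLS-439. TCC-SUP gave -0.27 over members and -0.30 over all genes. The 10 members that span over 50 kb had a median log2 fold change of -0.26 in T24, -0.16 in 5637 and -0.03 in TCC-SUP. All genes of that span had medians of -0.18, -0.2 and -0.31 in the same lines. MRPL1 and MRPL48 are among these long members, with spans of 90271 and 77818 bp, while MRPL24 spans 4288 bp. Of the other long members, MRPS22 was called lower in T24, MRPS27 lower in 5637 and MRPS6 higher in 5637. MRPL13, MRPL33, MRPS5, MRPS9 and MRPS28 were not called in any line. These are descriptions across genes, which share libraries and are not independent.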
